A study of Mus musculus with 6 samples.

Results

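Of the 36994 genes named on the array, 38 encode chaperones and folding enzymes of the endoplasmic reticulum (ER), parts of its translocation and degradation machinery, and the sensors of the unfolded protein response. They were taken by name, from a list of gene symbols, and 75 of the 56605 probes carry 1 of those symbols. Their levels were read on 6 Agilent 1-colour arrays, hybridised with RNA of common bile duct epithelium from C57BL/6 mice that the labels name iFGF10. The DOX+ mice (n = 3 samples) were given drinking water with 0.02% doxycycline over 5 days, and the DOX- mice (n = 3 samples) plain water over the same 5 days. Doxycycline switches on genes under a tetracycline-controlled promoter, and FGF10 is a growth factor secreted by mesenchyme that acts on epithelia. The DOX- descriptions carry names that begin with WT and a pair of numbers, but under source name they are untreated iFGF10 mice. The sources used here do not settle whether the controls held the construct or whether each sample is 1 mouse or a pool, and they do not name the promoter or cell type that drives the construct. No doxycycline-treated mice without the construct were analysed here, so the drug and the induced gene cannot be told apart.

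Proteins bound for secretion or for membranes enter the ER through the SEC61 channel, fold with the help of BiP and the lectin chaperones, and gain disulfide bonds from the protein disulfide isomerases. Proteins that fail to fold are sent back to the cytosol and degraded. When unfolded proteins build up, the membrane sensors IRE1, PERK and ATF6 start the unfolded protein response, and the transcription factors ATF6 and XBP1 then raise many of the genes described here. Duct epithelium lines the bile passages and secretes bicarbonate, and gland cells beside it secrete mucus.

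Many chaperone genes are known to carry the ER stress response element, written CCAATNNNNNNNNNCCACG, to which ATF6 binds together with NF-Y. Promoter stretches of 7 members are shown because they hold this element, or a shorter form of it, and because they include the lowest and the highest difference found among the members that hold either form. They run 5′ to 3′ on the strand of the gene and come from RefSeq on the GRCm38.p6 build. Capitals mark the 5-base blocks of the element. CCAAT and CCACG read forward, while CGTGG and ATTGG mark the element on the opposite strand. Herpud1 holds the shorter form, known as ERSE-II, in which ATTGG and CCACG are 1 base apart.
Hspa5: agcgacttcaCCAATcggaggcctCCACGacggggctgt
Hsp90b1: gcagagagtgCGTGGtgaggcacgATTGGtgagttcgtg
Calr: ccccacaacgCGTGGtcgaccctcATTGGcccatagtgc
Pdia6: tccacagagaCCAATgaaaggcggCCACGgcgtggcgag
Creld2: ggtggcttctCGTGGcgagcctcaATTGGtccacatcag
Dnajc3: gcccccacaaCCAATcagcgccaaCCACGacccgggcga
Herpud1: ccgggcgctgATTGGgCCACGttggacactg
These stretches lie at chr2:34772015-34772053 on the plus strand for Hspa5, chr10:86705523-86705561 on the minus strand for Hsp90b1 and chr8:84847065-84847103 on the minus strand for Calr. Those of Pdia6, Creld2, Dnajc3 and Herpud1 are on the plus strand, at chr12:17266481-17266519, chr15:88819510-88819548, chr14:118937817-118937855 and chr8:94386367-94386397. The elements end 47 bases before the annotated start of Hspa5, 80 before that of Pdia6, 87 before that of Dnajc3 and 89 before that of Hsp90b1. They end 108 bases before the start of Creld2, 144 before that of Calr and 42 before that of Herpud1.

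No member passed the test at an adjusted p of 0.05 (limma, Benjamini-Hochberg over 20725 genes), and the smallest adjusted p was 0.208, for Pdia6. Over all genes tested, 0.0386% passed, or 8 genes. The mean was lower in DOX+ for 34 of the 38 members, where 51.7% of all genes tested had a lower mean. The median log2 difference, DOX+ minus DOX-, was -0.29 over the members and -0.01 over all genes tested. The genes tested as a whole were not matched to the members in brightness. Herpud1, Ern2, Sil1 and Edem2 were the 4 members with a higher mean in DOX+.

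At an unadjusted p of 0.05, 7 members were lower in DOX+, where the share among all genes was 6.32%, and 1 was higher, where it was 7.03%. All 3 DOX+ arrays lay below all 3 DOX- arrays in 12 members, a pattern found in 10.9% of all genes tested. These were Calr, Canx, Sdf2l1, Dnajb11, Pdia3, Pdia6, Sel1l, Derl1, Derl2, Sec61a1, Sec61b and Eif2ak3. The opposite pattern, found in 10.1% of all genes tested, held in 1 member, Ern2. In the other 25 members the arrays of the groups overlapped.

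**Figure D1:**
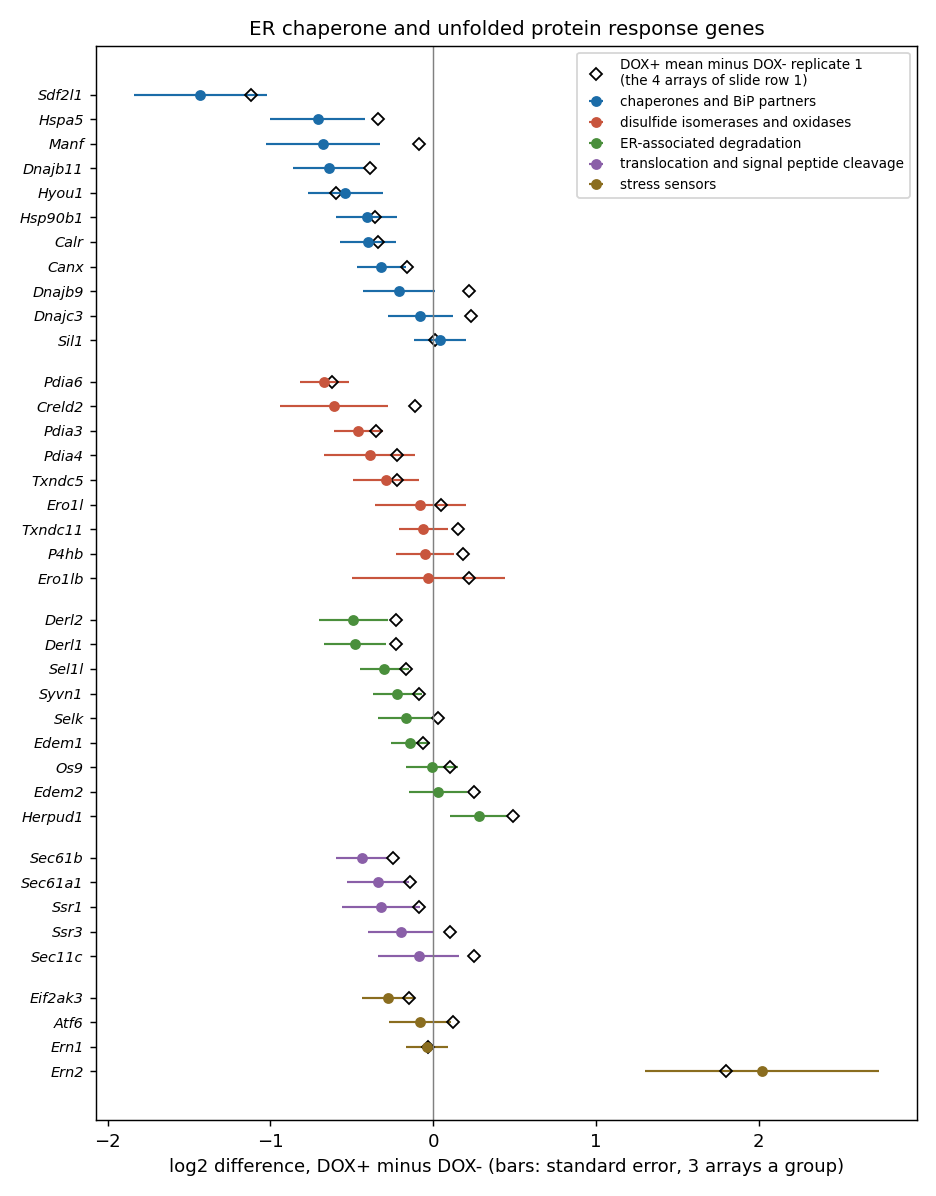
Difference of each of the 38 genes in log2 units, DOX+ minus DOX- (filled points, with the standard error as bars, 3 arrays a group), ordered within 5 role groups; open diamonds give the DOX+ mean minus DOX- replicate 1, the arrays of the first slide row. Only 4 filled points lie to the right of 0, and Ern2 at 2.02 and Sdf2l1 at -1.43 lie farthest from it.

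Levels below are log2 of the processed spot intensity over the 75th percentile of its array, so 0 is the level of that percentile, and they are compared between arrays for 1 probe at a time. The representative probe of each of the 38 genes was well above background on all 6 arrays, where that flag is the scanner software's own. Of the 75 member probes, 68 were kept and 7 were not, and 54 of the 68 had a lower mean in DOX+. Of 23 genes with several kept probes, 18 had all of them on the same side of 0. In the other 5, Derl1, Ern1, Hyou1, Sel1l and Sil1, the probes disagreed in sign.

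The array of DOX- replicate 3 stood apart in these genes. It was the highest of the 6 arrays in 32 of 38 members, while it was highest in 33% of all genes tested. The members' median deviation from their own mean over the 6 arrays was 0.39 on that array, against 0.06 and -0.02 on DOX- replicates 2 and 1 and 0.01, -0.16 and -0.21 on DOX+ replicates 1, 2 and 3. The same median over all genes was 0.07 on DOX- replicate 3.

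DOX- replicate 3 also had the lowest share of spots well above background, 55.93%, where the other 5 arrays had 59.39% to 61.9%, and the lowest 75th percentile of intensity, 666.16. Without it, 26 of the 38 members had a lower mean in DOX+, the median difference was -0.15, and 2 members were lower at an unadjusted p of 0.05. Over all genes in that fit, 48.8% had a lower mean and the median was 0.01. At the same unadjusted p, 2668 of 21166 genes were called in either direction, so the 2 members do not stand out. The part of this array in the result beyond these values was not tested.

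**Figure D2:**
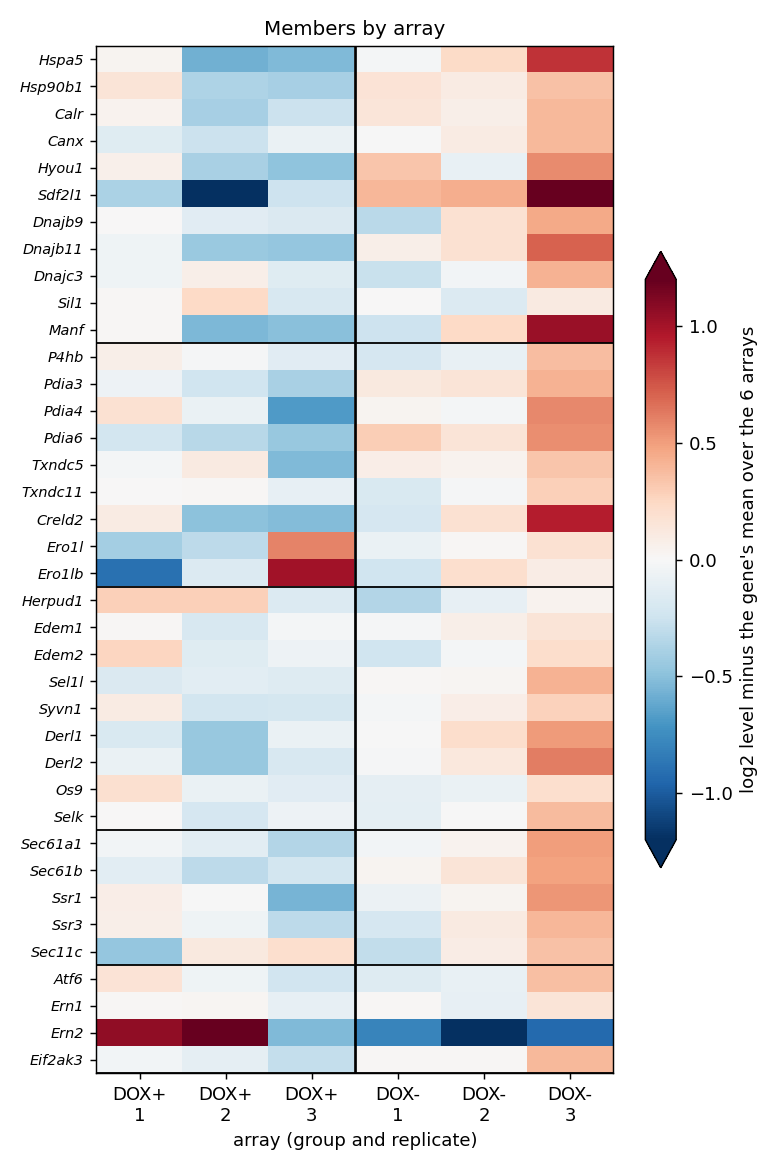
Heat map of each member's log2 level minus its own mean over the 6 arrays (colour, blue below and red above, with the darkest colours standing for anything past the ends of the scale), with genes down the page in their 5 role groups and the 3 DOX+ arrays left of the 3 DOX- arrays. The column of DOX- replicate 3 is red in nearly every gene (median 0.39), with Ern2 the blue exception.

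Position on the slide moved with the groups as well. The 3 DOX+ arrays and DOX- replicate 1 lay in the first row, and DOX- replicates 2 and 3 in the second. Within the first row, the DOX+ mean was below DOX- replicate 1 in 23 of 38 members, where that held for 46.3% of all genes tested, and the median difference was -0.09 over the members and 0.03 over all genes. That comparison has 1 DOX- array and so no replicate check.

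By role, the difference within the first row was -0.34 in the median of the 11 chaperones and BiP partners, of which 8 were lower. It was -0.11 in the 9 disulfide enzymes (5 lower) and -0.06 in the 9 degradation genes (5 lower). It was -0.09 in the 5 translocation genes (3 lower) and 0.04 in the 4 sensors (2 lower).

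Among the 11 chaperones and BiP partners, 10 had a lower mean in DOX+, with a median difference of -0.41, and none passed the test. Hspa5 encodes BiP, the main HSP70 chaperone of the ER lumen. Its levels were 5.29, 4.68 and 4.72 in DOX+ and 5.23, 5.48 and 6.12 in DOX-. DOX+ replicate 1 lay above DOX- replicate 1, so the groups overlapped. The difference was -0.71 ± 0.29 (SE), 1.64-fold lower in DOX+, with an adjusted p of 0.365 (limma). It was -0.46 without DOX- replicate 3 and -0.34 within the first slide row. Its probe lies at chr2:34631913-34631972 on the mm9 build.

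Sdf2l1, a partner of the ER J-domain co-chaperones that helps keep unfolded proteins soluble, had the lowest difference of all members. Its levels were 0.24, -0.89 and 0.37 in DOX+ and 1.02, 1.06 and 1.92 in DOX-. The groups did not overlap, and DOX+ replicate 2 lay more than 1 log2 unit below the other DOX+ arrays. The difference was -1.43 ± 0.41, 2.69-fold lower in DOX+, with an adjusted p of 0.266 (limma), and -1.12 within the first slide row. Leaving out each array in turn gave differences from -1.66 to -1.03.

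Dnajb11, a J-domain protein that delivers unfolded chains to BiP, had levels of 2.33, 1.94 and 1.92 in DOX+ and 2.45, 2.57 and 3.09 in DOX-. Groups were separate, and the difference was -0.64 ± 0.22 with an adjusted p of 0.32 (limma). Manf, a small stress-induced protein that binds BiP and is also secreted, had 2.12, 1.57 and 1.61 in DOX+ and 1.86, 2.35 and 3.14 in DOX-. Its groups overlapped, and its difference of -0.68 ± 0.35 was -0.34 without DOX- replicate 3 and -0.09 within the first slide row. A second Manf probe gave -0.68 as well.

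Hsp90b1, the HSP90 of the ER, had 5.64, 5.12 and 5.09 in DOX+ and 5.65, 5.59 and 5.84 in DOX-. DOX+ replicate 1 stood level with the DOX- arrays, and the other DOX+ arrays lay below them, for a difference of -0.41 ± 0.19. The lectin chaperone Calr, which is soluble, had 4.31, 3.87 and 4.01 in DOX+ and 4.41, 4.34 and 4.66 in DOX-, a difference of -0.40 ± 0.17. Its membrane-bound relative Canx had 4.70, 4.59 and 4.76 in DOX+ and 4.84, 4.94 and 5.23 in DOX-, a difference of -0.32 ± 0.15. Neither lectin chaperone's groups overlapped on these probes, and their adjusted p-values were 0.376 and 0.408 (limma). A second Canx probe gave -0.29 with overlapping groups.

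The exchange factors of BiP had differences of opposite sign, and neither passed the test. Hyou1, a large HSP70 relative, had -2.13, -2.58 and -2.68 in DOX+ and -1.86, -2.28 and -1.63 in DOX-, a difference of -0.54 ± 0.23. Of its 4 probes, 1 had a difference of 0.10 and the others lay between -0.60 and -0.38. Sil1, the other exchange factor, had 3.86, 4.09 and 3.65 in DOX+ and 3.85, 3.68 and 3.95 in DOX-, a difference of 0.04 ± 0.16. Its other kept probes gave -0.31 and 0.30, so no direction held for Sil1. The remaining J-domain genes were Dnajb9, at -0.21 ± 0.22, and Dnajc3, at -0.08 ± 0.20. In both, the lowest array was DOX- replicate 1 and the highest DOX- replicate 3.

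Among the 9 disulfide isomerases, oxidases and related thioredoxin-fold or ER-resident proteins, all 9 had a lower mean in DOX+, with a median difference of -0.29, and none passed the test. Pdia6, an isomerase that works with BiP and restrains IRE1, had levels of 4.55, 4.44 and 4.31 in DOX+ and 5.06, 4.92 and 5.33 in DOX-. All 3 DOX+ arrays lay below all 3 DOX- arrays. The difference was -0.67 ± 0.15, 1.59-fold lower in DOX+, with an adjusted p of 0.208 (limma), and -0.62 within the first slide row. Over all alternatives tried it lay between -0.79 and -0.50. The smallest adjusted p among them (limma), 0.0597, came with array weights, a setting under which 906 genes passed and DOX- replicate 2 had a weight of 6.34. The probe lies at chr12:17291070-17291129 on mm9.

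Pdia3, the isomerase that acts on glycoproteins held by Calr and Canx, had 2.76, 2.58 and 2.43 in DOX+ and 2.94, 2.98 and 3.24 in DOX-. No DOX+ array reached a DOX- array, and the difference was -0.46 ± 0.15 with an adjusted p of 0.303 (limma). On a second Pdia3 probe the groups overlapped and the difference was -0.40. Creld2, a stress-induced ER protein, had 3.82, 3.23 and 3.20 in DOX+ and 3.52, 3.9 and 4.66 in DOX-. DOX- replicate 3 was its highest array and the groups overlapped, for a difference of -0.61 ± 0.33 that was -0.29 without that array and -0.11 within the first slide row.

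Pdia4, a larger isomerase, had 1.38, 1.12 and 0.52 in DOX+ and 1.23, 1.18 and 1.78 in DOX-, a difference of -0.39 ± 0.28 with overlapping groups. Txndc5 was similar, at -0.29 ± 0.20, with DOX+ replicate 3 lowest. P4hb, the classical protein disulfide isomerase, had 4.16, 4.08 and 3.95 in DOX+ and 3.89, 4.0 and 4.46 in DOX-. Its difference was -0.05 ± 0.18, and within the first slide row it was 0.18. Txndc11 differed by -0.06 ± 0.15, and a second, dimmer probe gave -0.46 ± 0.35.

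The oxidases that recharge the isomerases showed a spread within DOX+ instead. Ero1l, now named Ero1a, had 1.37, 1.46 and 2.37 in DOX+ and 1.69, 1.79 and 1.96 in DOX-. Ero1lb, now named Ero1b, had -2.88, -2.15 and -0.98 in DOX+ and -2.23, -1.79 and -1.90 in DOX-. In both oxidases DOX+ replicate 3 was the highest and DOX+ replicate 1 the lowest of the 6 arrays. Their differences were -0.08 ± 0.28 and -0.03 ± 0.47, and leaving out single arrays moved that of Ero1lb between -0.54 and 0.41.

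Among the 9 genes of ER-associated degradation, 7 had a lower mean in DOX+, with a median difference of -0.17, and none passed the test. Derl1 and Derl2 encode derlins, membrane proteins of the channel through which misfolded proteins leave the ER. Derl1 had 1.36, 1.09 and 1.47 in DOX+ and 1.54, 1.76 and 2.06 in DOX-, a difference of -0.48 ± 0.19 (adjusted p 0.359, limma). Derl2 had 3.50, 3.12 and 3.38 in DOX+ and 3.56, 3.70 and 4.19 in DOX-, a difference of -0.49 ± 0.21 (adjusted p 0.382, limma). In neither derlin did the groups overlap on these probes, but another Derl1 probe gave 0.07, and the other Derl2 probe gave -0.31 with overlapping groups.

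Sel1l, the adaptor of the ubiquitin ligase that Syvn1 encodes, had 3.44, 3.49 and 3.46 in DOX+ and 3.63, 3.64 and 4.03 in DOX-. The groups did not overlap, and the difference was -0.30 ± 0.15, while its 2 other probes gave 0.12 and 0.09. Syvn1 itself differed by -0.22 ± 0.15, Edem1, which trims mannose from misfolded glycoproteins, by -0.14 ± 0.12, and Selk, now Selenok, a selenoprotein that binds derlins, by -0.17 ± 0.17. Os9, a lectin that recognises the trimmed sugar, differed by -0.01 ± 0.16 and Edem2 by 0.03 ± 0.18.

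Herpud1, a membrane protein that gathers the degradation complex and is among the genes most readily induced by ER stress, had a higher mean in DOX+. Its levels were 4.27, 4.27 and 3.82 in DOX+ and 3.63, 3.88 and 4.02 in DOX-. DOX+ replicates 1 and 2 were the highest arrays, and DOX+ replicate 3 lay among the DOX- arrays. The difference was 0.28 ± 0.18 with an adjusted p of 0.548 (limma), 0.49 within the first slide row, and it kept its sign in every alternative tried.

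Among the 5 genes of translocation and signal peptide cleavage, all 5 had a lower mean in DOX+, with a median difference of -0.32, and none passed the test. Sec61b, the small subunit of the channel, had 4.96, 4.78 and 4.87 in DOX+ and 5.12, 5.24 and 5.57 in DOX-, a difference of -0.44 ± 0.16 (adjusted p 0.334, limma). Sec61a1, the pore itself, had 4.96, 4.86 and 4.64 in DOX+ and 4.96, 5.03 and 5.49 in DOX-, a difference of -0.34 ± 0.19. The groups did not overlap in either, though in Sec61a1 the nearest arrays, DOX+ replicate 1 and DOX- replicate 1, were equal to 2 decimals. The Sec61a1 difference was -0.18 without DOX- replicate 3 and -0.14 within the first slide row, and its 2 other probes each gave -0.08. A second Sec61b probe gave -0.39 with overlapping groups. Ssr1 and Ssr3, subunits of the complex that assists the channel, differed by -0.32 ± 0.24 and -0.20 ± 0.20, and Sec11c, a catalytic subunit of signal peptidase, by -0.09 ± 0.25.

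Of the 4 sensors, 3 had a slightly lower mean in DOX+ and 1 a higher mean, and none passed the test. Ern2 encodes IRE1 beta, the form of IRE1 found in mucous epithelia, and it had the highest difference of all members. Its levels were 3.62, 5.06 and 2.03 in DOX+ and 1.77, 1.24 and 1.63 in DOX-. The groups did not overlap, and DOX+ replicate 2 lay far above DOX+ replicate 3, which was close to the DOX- arrays. The difference was 2.02 ± 0.72, 4.06-fold higher in DOX+, with an adjusted p of 0.33 (limma). It was 1.80 within the first slide row and 1.28 without DOX+ replicate 2.

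A second Ern2 probe gave -0.68, 0.63 and -1.95 in DOX+ and -2.83, -3.01 and -1.95 in DOX-, a difference of 1.93 ± 0.65. On that probe the order of the DOX+ arrays was the same, and DOX+ replicate 3 and DOX- replicate 3 were equal to 2 decimals. The representative Ern2 probe lies at chr7:129313475-129313534 on mm9.

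Ern1 encodes IRE1 alpha, the form found in most cells. It had 1.2, 1.21 and 1.09 in DOX+ and 1.2, 1.09 and 1.34 in DOX-, a difference of -0.04 ± 0.13. Atf6 had 0.59, 0.38 and 0.20 in DOX+ and 0.27, 0.34 and 0.79 in DOX-, a difference of -0.08 ± 0.19. Eif2ak3, which encodes PERK, had 1.00, 0.93 and 0.75 in DOX+ and 1.05, 1.05 and 1.42 in DOX-, a difference of -0.28 ± 0.16. Only in Eif2ak3 of these 3 did the groups not overlap.

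The element described above lay in the window from 250 bases before to 50 bases after the RefSeq start of 9 of the 30 members with a window, or 30% of them. Over 27025 genes with a window, 37 held it (0.137%), searched on both strands. The 9 members were Hspa5, Hsp90b1, Calr, Canx, Dnajc3, Pdia6, Creld2, Ero1lb and Syvn1, and Hsp90b1 held 2 of them. ERSE-II lay in Herpud1 and Dnajb11, 6.67% of the members with a window and 0.0444% of all genes. The 7-base core TGACGTG, to which ATF6 and XBP1 bind, lay in Hspa5, Txndc5 and Txndc11, 10% of the members with a window, while 2.22% of all genes held it. No motif overlapped another in a member. Atf6, Derl1, Ern2, Hyou1, Manf, Sec11c, Sec61a1 and Sil1 have no window here. A match of letters is a description and not a site that was shown to be bound. Only exact matches inside the window were counted, so variant or more distant elements were not looked for.

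The 11 members with either form of the element had a median difference of -0.40, and 10 of them had a lower mean in DOX+. The 19 members with a window and neither form had a median of -0.21, with 18 lower, and the 8 without a window a median of -0.22, with 6 lower. All DOX+ arrays lay below all DOX- arrays in 4 of the 11, 6 of the 19 and 2 of the 8. That pattern was found in 10.9% of all genes tested. The split by element was not repeated within the first slide row or without DOX- replicate 3. Within the 11, the differences ran from -0.71 in Hspa5 to 0.28 in Herpud1. Of other genes that hold either form, 16 were tested, with a median of 0.02, 6 lower and 10 higher. Over all 12396 tested genes with a window the median was -0.03.

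**Figure D3:**
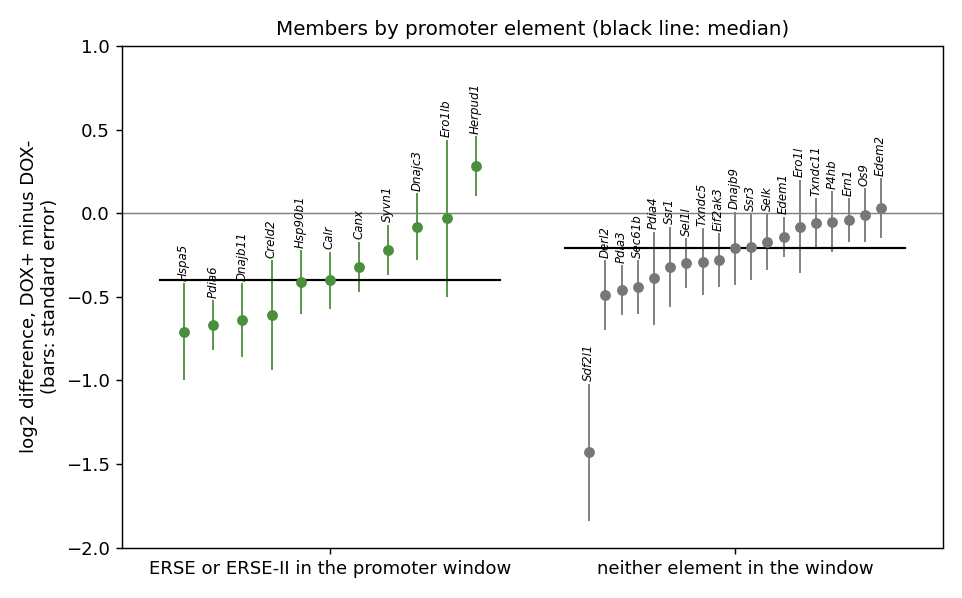
Log2 difference, DOX+ minus DOX-, of the 30 members with a promoter window (points, with the standard error as bars), split into those that hold either form of the element and those that hold neither, with a black line at each median. The medians are -0.40 and -0.21, and Sdf2l1, at -1.43, holds neither form as an exact match in its window.

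The wider pathway was read in 5 further lists, in which no gene passed the test (limma). Of 15 other transcription factors and genes of the eIF2 alpha arm, 6 had a lower mean and 9 a higher mean in DOX+, with a median difference of 0.02. Xbp1, whose mRNA is spliced by IRE1, had 5.80, 5.90 and 5.92 in DOX+ and 5.90, 6.06 and 6.28 in DOX-, a difference of -0.20 ± 0.14 in which the spliced form was not told apart. Atf4, the factor downstream of PERK, differed by -0.17 ± 0.11 and Ddit3, the CHOP gene, by 0.26 ± 0.17. Creb3l1, a membrane-bound transcription factor of secretory cells, had 3.02, 3.75 and 3.77 in DOX+ and 2.56, 2.55 and 2.58 in DOX-. Its groups did not overlap, and its difference was 0.95 ± 0.23 with an adjusted p of 0.216 (limma). Creb3l3 differed by 2.05 ± 0.71 and Trib3 by 0.76 ± 0.31, both without overlap.

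Of 26 other folding and disulfide genes, 23 were tested and Fkbp11, Clgn and Agr3 were too dim. The mean was lower in 16 and higher in 7, with a median of -0.08. Agr2, the isomerase of mucus-producing cells, had 3.16, 5.58 and 2.78 in DOX+ and -0.48, -1.02 and -3.67 in DOX-. As with Ern2, DOX+ replicate 2 was the highest array and DOX+ replicate 3 the lowest of its group, and the difference was 5.56 ± 1.07 with an adjusted p of 0.176 (limma). Creld1, a relative of Creld2, differed by 0.45 ± 0.14. Cdnf, a relative of Manf, had -3.72, -3.95 and -3.73 in DOX+ and -4.47, -4.89 and -4.96 in DOX-. Its probe was well above background on all 3 DOX+ arrays but on 1 of the 3 DOX- arrays, and it was kept through DOX+ alone.

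**Figure D4:**
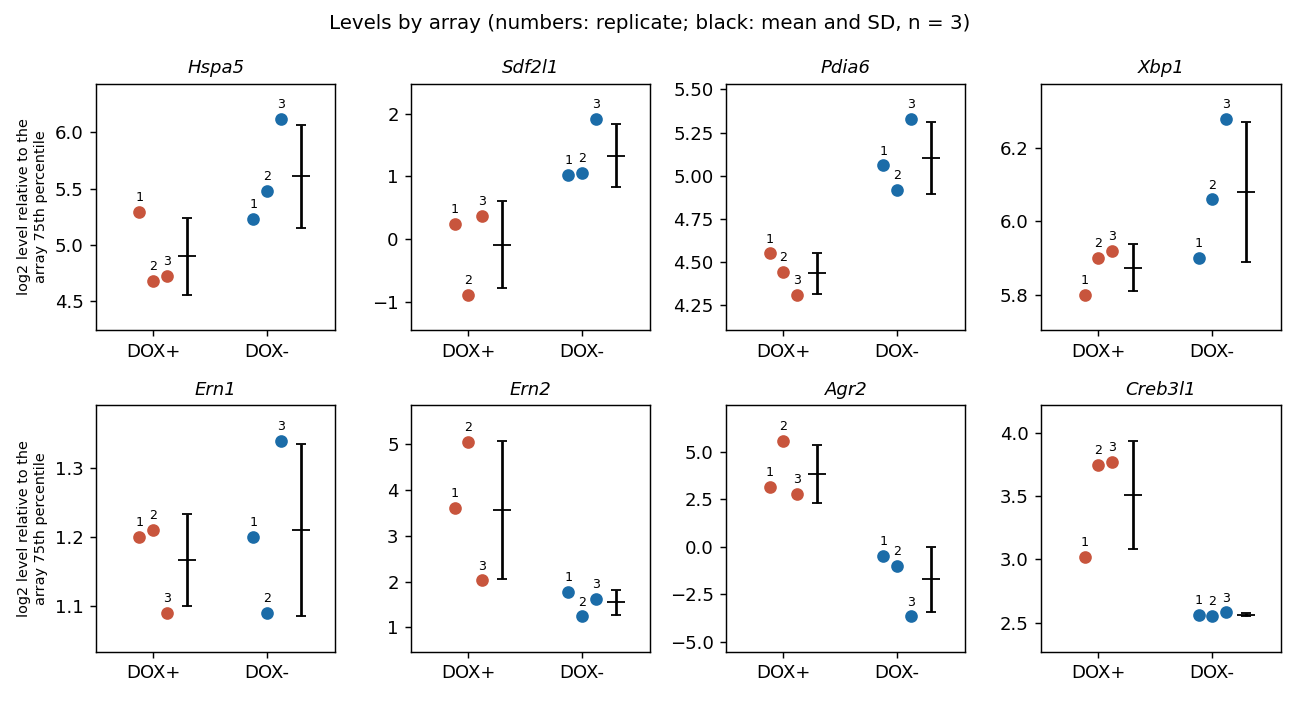
Log2 level, relative to the 75th percentile of the array, of 5 members (Hspa5, Sdf2l1, Pdia6, Ern1, Ern2) and of Xbp1, Agr2 and Creb3l1 on each array, DOX+ points left of DOX- points, numbered by replicate, with the mean and SD (n = 3) in black; each panel has its own axis. Sdf2l1 and Pdia6 show no overlap of the groups, Hspa5 overlaps at DOX+ replicate 1, and Ern2 and Agr2 are highest on DOX+ replicate 2.

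Of 26 other glycoprotein quality control and degradation genes, 20 had a lower mean in DOX+, with a median of -0.16. Uggt1, the sensor of unfolded glycoproteins, differed by -0.46 ± 0.18, its relative Uggt2 by 0.68 ± 0.24, Mogs, the first glucosidase of the pathway, by -0.40 ± 0.16 and Derl3 by 0.55 ± 0.38. Of 29 other translocation and oligosaccharyltransferase genes, 28 had a lower mean, with a median of -0.20, but within the first slide row 13 did, with a median of 0.03. The smallest p-values in that list belonged to Srp54a at -0.54 ± 0.18, Srp19 at -0.37 ± 0.14 and Rpn1 at -0.44 ± 0.17. Of 25 genes of traffic to the Golgi, 21 had a lower mean, with a median of -0.17, and within the first slide row 8 did, with a median of 0.13. Golgb1 at 0.41 ± 0.13, Sec23b at 0.85 ± 0.37 and Lman2 at -0.39 ± 0.21 led that list.

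The samples held RNA of several cell types, and in whole-tissue RNA fewer cells of a type and less RNA per cell cannot be told apart. Marker lists were summed as signal relative to the 75th percentile of each array. Cholangiocyte markers, led by Krt18 and Krt19, were well above background on all 6 arrays in 16 of 17 genes, with sums of 573 to 700 in DOX+ and 675 to 929 in DOX-. Their highest sum was on DOX- replicate 3, the array on which the ER genes were also highest. A few bright genes, Krt18 and Krt19 among them, made up most of each sum, which therefore hides the others. Of 16 cholangiocyte genes tested, 13 had a lower mean in DOX+, with a median difference of -0.22. Pancreatic acinar markers, led by Ctrb1 and Cela1 and typical of cells rich in ER, were above background on all 6 arrays in 13 of 20 genes. Their sums were 198, 109 and 130 in DOX+ and 79, 121 and 321 in DOX-, so DOX- replicate 3 was highest here too. By group means, however, 5 of 18 acinar genes tested were lower in DOX+ and 13 were higher, with a median difference of 0.48. On DOX- replicate 1, Ctrb1 and Cela1, at 5.15 and 4.57, made up most of the sum. Of 18 acinar genes tested, 1 had a DOX+ mean below that array, with a median difference of 3.26 (0.03 over all genes). By most acinar markers the only control of the first-row comparison thus held less acinar RNA, and the effect of this was not tested.

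Plasma cell markers, led by Sdc1 and Pou2af1, summed to 12.3 to 14.6 in DOX+ and 13.9 to 17.3 in DOX-, with 4 of 9 measured genes above background on all 6 arrays and Fkbp11 and Cd27 on none. Sdc1 and Pou2af1 made up most of each sum. Of 5 plasma cell genes tested, 2 had a lower and 3 a higher mean in DOX+, with a median difference of 0.04. Mzb1, picked after its levels were seen, had -2.67, -2.09 and -1.39 in DOX+ and -3.51, -4.15 and -6.75 in DOX-. Its probe was well above background on all 3 DOX+ arrays but on only 2 DOX- arrays. It was thus kept through DOX+ alone. Sdc1 differed by 0.04 ± 0.29 and Pou2af1 by -0.68 ± 0.22. Goblet and mucous cell markers, a list that holds Agr2 and is led by Tff3 and Tff2, summed to 66.9, 232 and 124 in DOX+ and 127, 121 and 164 in DOX-, with 8 of 13 above background on all 6 arrays and Muc5ac, Gkn1 and Gkn2 on none. DOX+ replicate 2, the highest array for Ern2, had the highest of these sums. DOX+ replicate 1, the next highest array for Ern2, had the lowest. Of 10 goblet and mucous cell genes tested, 4 had a lower and 6 a higher mean in DOX+, with a median difference of 0.32. Hepatocyte markers (Ambp, Ttr; 12 of 12 above background on all 6 arrays) summed to 318 to 410 in DOX+ and 371 to 433 in DOX-. Ambp, at 7.91 to 8.46, made up most of each sum, which therefore hides the spread of the others. Alb had 2.07, 5.2 and 3.37 in DOX+ and 5.25, 4.32 and 1.95 in DOX-. Of the 12 genes, 9 had a lower mean in DOX+, with a median difference of -0.33.

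Smooth muscle markers (Acta2, Tagln; 8 of 8) summed to 75.3 to 176 in DOX+ and 57.7 to 305 in DOX-, highest on DOX- replicate 1. Fibroblast markers (Dcn, Col1a2; 9 of 10) summed to 91.1 to 147 in DOX+ and 108 to 165 in DOX-. Endothelial markers (Plvap, Emcn; 10 of 10) summed to 16.6 to 22.3 in DOX+ and 10.3 to 14.2 in DOX-, without overlap. Mast cell and eosinophil markers (Mcpt4, Cma1; 8 of 14, Epx on none) summed to 9.87, 16.8 and 106 in DOX+ and 7.54, 4.46 and 2.84 in DOX-, also without overlap.

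Macrophage markers (Lyz2, Itgam; 9 of 9) summed to 49.9 to 62.6 in DOX+ and 35.9 to 76.9 in DOX-. B cell markers (Cd79b, Cd22; 2 of 7) summed to 1.30 to 1.81 in DOX+ and 1.31 to 1.75 in DOX-. T and NK cell markers (Cd4, Cd3e; 7 of 10, Cd8a and Ncr1 on none) summed to 3.30 to 3.52 in DOX+ and 2.48 to 3.40 in DOX-. Islet markers (Pdx1, Pcsk1; 3 of 9) summed to 1.32, 7.73 and 1.99 in DOX+ and 1.64 to 1.82 in DOX-. Most of the 7.73 came from Sst, at 2.15 on DOX+ replicate 2 and -7.25 on DOX+ replicate 1. The part of these cell types in the levels of the ER genes was not tested.

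**Figure D5:**
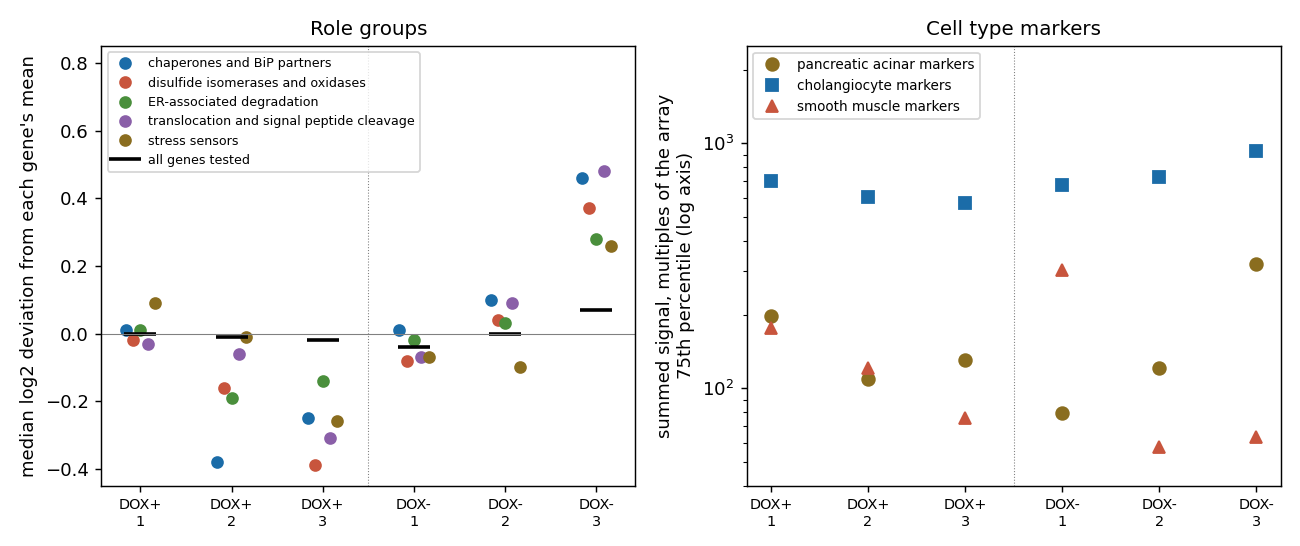
Left, median log2 deviation of each role group from its genes' means on each array, with black bars for all genes tested; right, summed signal of 3 marker lists on each array in multiples of its 75th percentile, on a log axis, with DOX+ arrays left of DOX- arrays in both. On DOX- replicate 3 all 5 role groups lie above the bar for all genes, and the acinar sum is at its highest, 321.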

How the data were processed

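Total RNA was amplified, labelled and hybridised to 1 Agilent array per sample. The deposited scanner files hold processed spot intensity, background-subtracted within each array, and flags, made with Feature Extraction 10.7.1.1 per the file headers and 9.5.1.1 per the submitters' processing notes. A deposited table of the authors holds processed intensity on a linear scale, with sorted columns equal within a relative difference of 0.00034 and a median of 57.79 in each column; no sample column was left unused (0). All 6 arrays shared 1 slide and 1 scan, no spot was saturated, and 50 to 64 outlier spots per array were left out.

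Processed intensity was divided by the 75th percentile of its array and put on the log2 scale, and spots of a probe were averaged. A probe was kept if the 3 arrays of either group all flagged it well above background (31720 probes), and the probe with the highest mean stood for its gene. Probes were named through RefSeq by accession (33903), symbol (9458) or older symbol (488), and otherwise by the file's name (12756). Coordinates of probes are the files' own (mm9). The comparison of DOX+ with DOX- used limma 3.58.1 (R 4.3.3), two-sided, on group alone, with Benjamini-Hochberg adjustment over all genes and a threshold of 0.05. The fit was run on simulated data to check only the sign and average size of planted changes. Those changes were larger than the differences of most members. The simulation did not copy the slide rows or DOX- replicate 3, and false calls were not checked. Array weights were estimated gene by gene, since the default estimate did not converge. With 3 arrays per group, the number of arrays limits the precision, and the p-values reflect only the spread among these samples, since the labels do not tie each to a separate animal.

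The members and lists were chosen with earlier results of these data known. All members could be named. Of each further pathway list, genes past the test or the 3 with the smallest p were named, plus Xbp1, Atf4, Ddit3, Agr2, Derl3 and Creb3l1. Of each marker list the 2 with the highest signal were named, plus Alb, Mzb1 and Sst, which were chosen after their levels were seen. Alternatives covered background correction, scaling, the filter, the choice and naming of probes, the authors' values, array weights, slide row or replicate number as a block, and leaving out each array.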

Additional observations from a re-analysis of the deposited data

How the results depend on the processing

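No member passed the test under any of the 18 alternatives (limma; the smallest adjusted p-values, 0.0534 for Ern2, 0.0597 for Pdia6 and 0.063 for Sdf2l1, all came with array weights). Under the 16 alternatives fitted per reference gene, 22 members kept a lower mean in DOX+ and 2, Herpud1 and Ern2, a higher one, and 14 changed sign under at least 1. Of all genes tested, 25.4% kept a lower mean throughout, and 57.9% of members did. With each probe by itself, 54 of 68 member probes had a lower mean in DOX+. With slide row as a block, 23 members were lower and the median was -0.09. All DOX+ arrays lie in the first row, so that fit's differences repeat the first-row comparison with DOX- replicate 1 alone. Array weights gave 28 lower members and a median of -0.18, and array median scaling gave 36 and -0.40. The authors' values and quantile normalization each gave 31 and -0.19. Leaving out 1 array gave 26 to 35 lower members, a median of -0.36 to -0.15 and 0 members past the test.

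The 8 genes past the test became 5 with array median scaling, 906 with array weights (DOX- replicate 2 then had a weight of 6.34), 2 with the authors' values, 18 with each probe by itself, 1 with no filter, 2 with quantile normalization, 5 with probes above background on all 6 arrays and 0 with the slide row block (1409 at an unadjusted p of 0.05). Leaving out 1 array gave 0 to 30, with 0 without DOX- replicate 2 (1556 at an unadjusted p of 0.05). Array median scaling put the median of all genes at -0.13 and the share of genes with a lower mean at 66.5%, against -0.01 and 51.7%. Replicate numbers showed no sign of pairing in these values. Deviations of same-numbered arrays from their group means had correlations of -0.09, -0.13 and -0.02. Such correlations do not settle whether the samples were paired by design. With replicate number as a block, 0 genes passed (2259 at an unadjusted p of 0.05), and 34 members were lower with a median of -0.29.

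Of 646 member values under alternatives, 54 had the opposite sign, all in 14 members whose main differences lay between -0.21 and 0.04, and the cause was not tested. Array median scaling gave Sil1 -0.08 and Edem2 -0.08. Array weights gave Dnajc3 0.03, P4hb 0.07, Txndc11 0.01, Os9 0.07, Atf6 0.06 and Ern1 0.07. The authors' values and quantile normalization each gave P4hb 0.07, Txndc11 0.04, Edem2 -0.02, Os9 0.11 and Ern1 0.0. The mean of probes gave Ern1 0.06, and normexp gave Ero1lb 0.01 and Os9 0.0. The slide row block gave Dnajb9 0.22, Dnajc3 0.23, P4hb 0.18, Txndc11 0.15, Ero1l 0.05, Ero1lb 0.22, Os9 0.10, Selk 0.03, Ssr3 0.10, Sec11c 0.25 and Atf6 0.12. Leaving out 1 array gave Sil1 -0.08 to 0.14, Ero1l -0.40 to 0.10, Ero1lb -0.54 to 0.41, Edem2 -0.09 to 0.15, Sec11c -0.27 to 0.11, P4hb -0.17 to 0.12, Os9 -0.11 to 0.09, Atf6 -0.18 to 0.09, Dnajc3 -0.23 to 0.11, Txndc11 -0.16 to 0.07 and Ern1 -0.10 to 0.02.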
